A study of Mus musculus with 2 samples.

Results

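Imprinted genes are transcribed mainly from the allele inherited from 1 parent, and they lie in clusters in which a methylated control region sets the choice of allele. In the mouse telencephalon they include growth regulators, noncoding transcripts and ubiquitin ligases, and several are abundant in neurons. The set described here is 39 imprinted genes listed by symbol and placed in 18 clusters by their deposited positions. Of these, 38 had a row among the 19202 genes of the table, and Snurf had none, so its expression was not analysed here. The counts do not separate the parental alleles, so each value is the sum over both. By the allele known to be expressed, 21 of the 38 were grouped as paternal and 13 as maternal. Grb10, Gnas, Blcap and Inpp5f were set apart as dependent on tissue or isoform. Ube3a, grouped as maternal, is so expressed in neurons. Whether each gene is expressed from 1 allele in this tissue was not tested.

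The RNA came from C57BL/6 mouse embryos at day 12 (E12), of genotype H2AZcKO (H2AZ cKO below) or H2AZfl/fl, the floxed control, whose column in the table is headed WT. The labels call the tissue telencephalic, and their protocol says cerebral cortex. H2A.Z, encoded by H2afz and H2afv, replaces histone H2A at many promoters. The labels name neither the Cre driver nor any pooling of animals. Although the design mentions triplicates, there is 1 count column per genotype, so no difference below has a replicate check and no p-value was computed. Depth was 8839840 counts for the H2AZ cKO and 8891198 for the control. The 3 counts that a listed 0 still allows correspond to 0.344 and 0.333 CPM, the count scaled to library size.

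The targeted H2afz stood at 1664 counts against 2605, a ratio of 0.661 (95% interval 0.621 to 0.703), while H2afv stood at 2752 against 2270, a log2 ratio of 0.33. Here and below a ratio is H2AZ cKO over control after scaling, with an exact binomial (Clopper-Pearson) interval that covers counting error only. The libraries differ in other respects. Xist had 6384 counts against 200 and the Y-linked Ddx3y 0 against 249, so the libraries differ in the sex of their embryos as well. The 10 telencephalic markers were all present in both libraries, at 2594 and 2423 CPM summed, and the ventral markers Nkx2-1 at 1.58 (1.45 to 1.73), Gsx2 at 1.43 (1.14 to 1.79) and Dlx2 at 1.21 (1.14 to 1.28) were the highest of them. Of the 6 neuron markers 3 (Dcx, Map2 and Elavl4, at 0.905 to 0.927) had an interval below 1 and 1 (Tubb3) above it. Of the 6 progenitor markers 5 had an interval above 1, with Hes5 highest at 1.62 (1.37 to 1.91). With a trend of length, GC content and level removed, 3 progenitor markers lay above a log2 ratio of 0 and 3 below. Of the neuron markers 1 then lay above and 5 below. The part of these differences in the values of the imprinted genes was not tested. The 9 erythroid markers summed to 690.7 against 364.1 CPM and the 10 macrophage and microglia markers to 49.6 against 35.5 CPM.

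In the median, imprinted genes lay close to all other genes. Of the 38, 36 reached 1 CPM in the higher library and were compared, and Phlda2 and Airn did not. On the log2(CPM + 1) scale, which understates differences of low genes, their median ratio was -0.0208, beside 0.00603 over all 14586 genes at that level. The 17 members without an exon overlap with another annotated gene had a median of -0.10. Their counting interval lay below 1 for 8 (47.1%) and above 1 for 3 (17.6%), where 11.2% and 12.6% of all genes did so. None of the 36 was at least 1.5-fold higher or lower, where 1.92% of all genes were higher and 3.03% lower. At a smaller size, 0.32 on the log2 scale, 2 were higher (Asb4 and Mkrn3) and 4 lower (Dlk1, Peg3, Ppp1r9a and Magel2), or 5.56% and 11.1%, against 7.94% and 9.79% of all genes. Those shares are near the background over all genes, of which many are low. Among genes with 200 or more summed counts only 3.41% were that much higher and 3.88% lower, and 34 of the 36 members are that deep, including all 6 of these. Below 0 lay 21 members (58.3%), where 49.0% of all genes did. The counting interval lay below 1 for 10 of 36 and above 1 for 6, or 27.8% and 16.7%, where 11.2% and 12.6% of all genes did so. This share depends on depth. Among the genes of 200 or more counts the background was 12.9% below and 16.5% above, and the 34 members of that depth include 10 below and 6 above. In the authors' deposited table no member is marked significant, a mark that 0.896% of all rows carry, while 10 members lie below the control with a deposited adjusted p under 0.05 and 0 above it, against 5.97% and 3.57% of all rows. No share among genes of 200 or more counts was taken for that adjusted p, so this comparison does not allow for depth. The sources used here do not name the test behind that adjusted p.

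**Figure D1:**
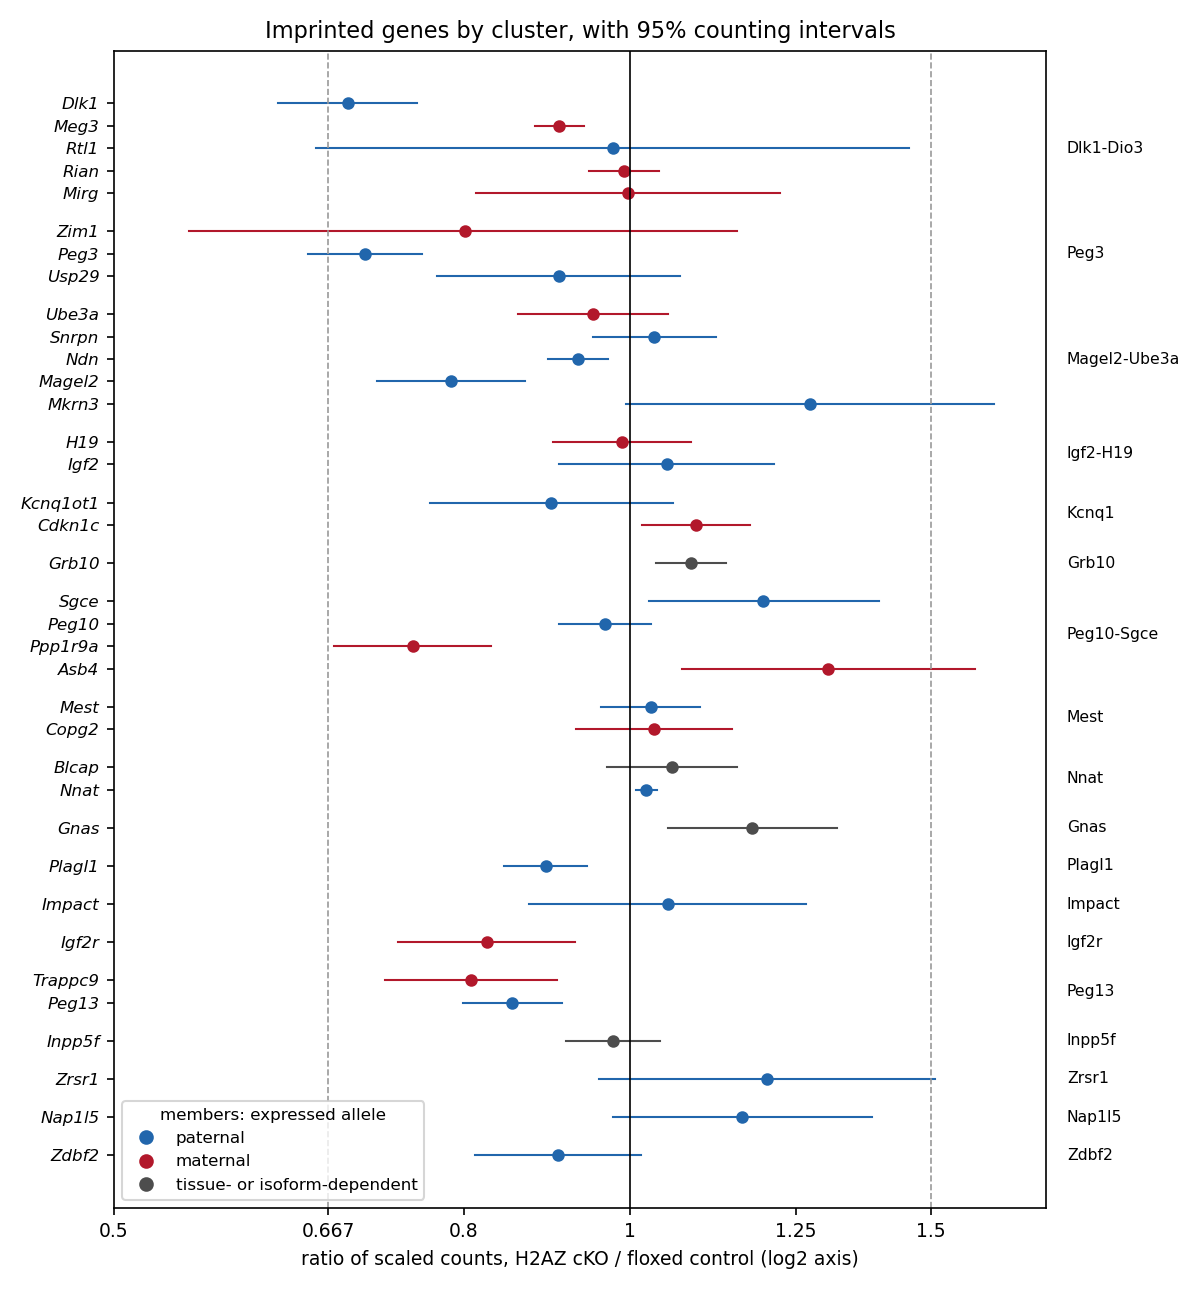
Ratio of scaled counts in the H2AZ cKO over the floxed control for the 36 imprinted genes at 1 CPM or more, ordered by cluster and by position within it, on a log2 axis. Points are ratios and bars 95% counting intervals from 1 library per genotype, coloured by the allele known to be expressed, and dashed lines mark 1.5-fold. No point lies beyond 1.5-fold, and Dlk1 (0.685) and Peg3 (0.701) are the lowest.

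Paternally and maternally expressed genes did not stand on opposite sides. The 20 genes grouped as paternal had a median log2 ratio of -0.0376, with 9 above 0 and 11 (55%) below. The 12 grouped as maternal had a median of -0.0421, with 3 above 0 and 9 (75%) below. Of all genes 49.0% lay below 0. Ppp1r9a and Igf2r are among those 9, and whether this tissue expresses them from 1 allele was not tested. Among members without an exon overlap the medians were -0.07 for 10 paternal and -0.28 for 5 maternal genes. The 4 genes set apart as dependent on tissue or isoform had a median of 0.10, with 3 above 0. All 6 noncoding members compared (Meg3, Rian, Mirg, H19, Kcnq1ot1 and Peg13) were below 0, at a median of -0.08 and a range of -0.23 to -0.00304. With a trend of length, GC content and level removed, 3 of them lay above 0 and 3 below, at a median of 0.0033. The 30 protein-coding members were split evenly, with 15 above 0 and 15 below.

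In level, Nnat (neuronatin, a small membrane protein of developing neurons) stood apart from the rest. It had 37734 counts in the H2AZ cKO against 38177 in the control, ranked 6 and 5 among all genes by count, and made up 47.3% and 45.4% of the counts of all 38 members. Its level in the control was 2315 CPM per kilobase of exon. Ndn followed at 152, Cdkn1c at 79.4, Snrpn at 58.7 and Mest at 49.4 on the same scale. At the other end Phlda2, a pleckstrin-domain gene known for restraining placental growth, had 2 counts against 1. Airn, the noncoding antisense transcript that silences Igf2r in cis, had 8 against 7. Kcnq1ot1 stood at 0.385 CPM per kilobase over its long transcript of 93092 exon bases.

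**Figure D2:**
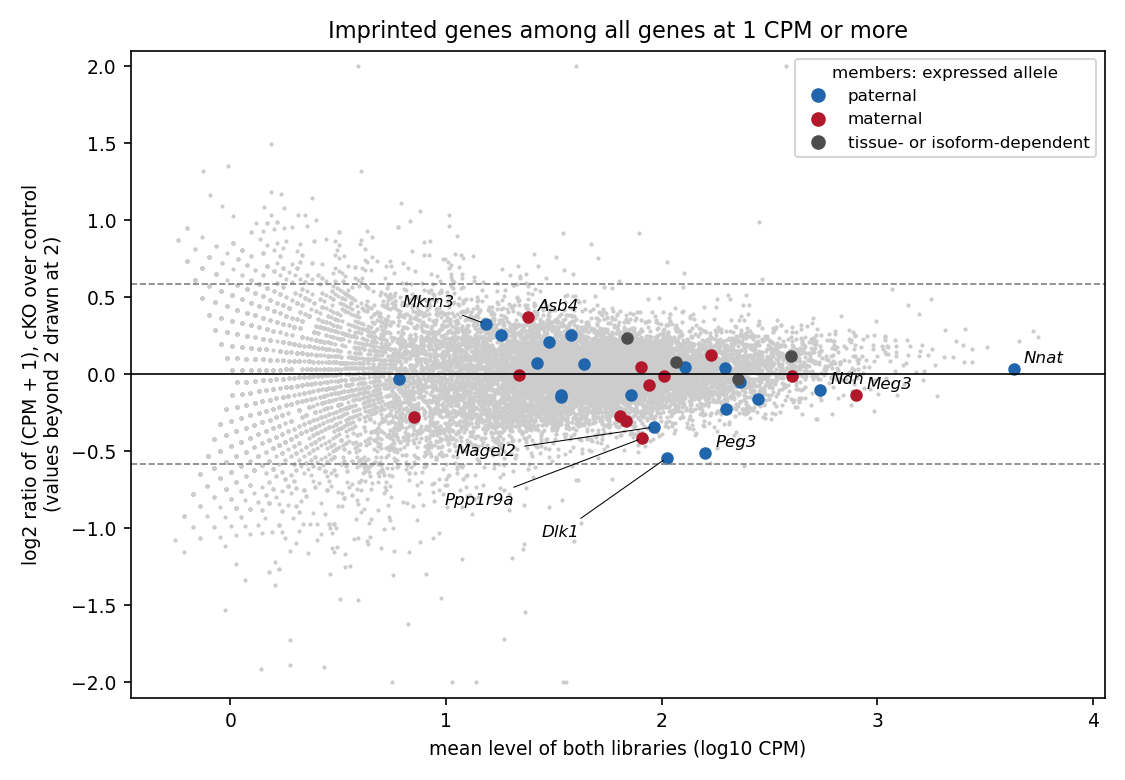
Log2 ratio of (CPM + 1), H2AZ cKO over floxed control, against the mean level of both libraries in log10 CPM. Grey dots are the 14586 genes at 1 CPM or more, coloured points the 36 imprinted genes, and dashed lines mark 1.5-fold; Nnat is the most abundant member and lies at a log2 ratio of 0.03.

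The Dlk1-Dio3 cluster on chromosome 12 holds the lowest member. Dlk1 (chr12:109452823-109463336, plus strand, GRCm38 positions as deposited), a transmembrane protein of the Delta family that is also shed as a soluble factor in neurogenic niches, had 749 counts in the H2AZ cKO against 1132 in the control, or 85.9 and 125.5 CPM. Its ratio was 0.685 (0.623 to 0.751). In bulk tissue fewer cells of a type and less RNA per cell cannot be told apart, here and in all results below. Meg3, the long noncoding RNA expressed from the maternal copy of the same cluster, had 6631 counts against 7539, a ratio of 0.910 (0.880 to 0.941). The transcripts downstream of Meg3 on the same strand lay at 1. Rian, a host of small nucleolar RNAs, had 3486 counts against 3635 (0.992, 0.947 to 1.04). Mirg, a host of microRNAs, had 190 against 197 (0.998, 0.813 to 1.22). The paternally expressed Rtl1, derived from a retrotransposon, had 52 against 55 (0.978, 0.656 to 1.46). The balance of transcripts within the cluster differed between the libraries. There were 8.85 Meg3 counts for each Dlk1 count in the H2AZ cKO and 6.66 in the control, a ratio of ratios of 1.33 (1.20 to 1.47) that needs no scaling of the libraries. The Rian to Meg3 balance was 1.09 (1.03 to 1.15) and the Rtl1 to Dlk1 balance 1.43 (0.947 to 2.15), an interval that holds 1.

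Rtl1 and the transcripts opposite it share the same DNA, and the TruSeq kit named in the labels is not a strand-marking one, so their reads cannot be told apart. RefSeq (GRCm38.p6) places 7 miRNA hairpins inside the deposited Rtl1 interval, 6 of them on the opposite strand. Mirg holds 14 hairpins, Rian 3 and Meg3, H19, Mest and Igf2 1 each. The libraries counted long transcripts, so levels of mature miRNAs were not measured. Mature sequences of 10 of these miRNAs are shown to identify what these members carry, with the seed (bases 2 to 8) in capitals, from RefSeq. The first 5 lie opposite Rtl1, and the others lie in Mirg (miR-154-5p and miR-410-3p), Rian (miR-370-3p), H19 (miR-675-5p) and Mest (miR-335-5p). No pair of these 10 shares a seed.
miR-127-3p: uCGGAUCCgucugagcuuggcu
miR-433-3p: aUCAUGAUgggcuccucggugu
miR-434-3p: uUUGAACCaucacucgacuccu
miR-136-5p: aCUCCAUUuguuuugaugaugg
miR-431-5p: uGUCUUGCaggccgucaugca
miR-154-5p: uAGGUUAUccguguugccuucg
miR-410-3p: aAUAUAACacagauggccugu
miR-370-3p: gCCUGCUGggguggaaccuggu
miR-675-5p: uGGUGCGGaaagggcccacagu
miR-335-5p: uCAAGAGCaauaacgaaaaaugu

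The Peg3 cluster on proximal chromosome 7 was the other place where a gene stood near 1.5-fold lower. Peg3, a Krüppel-type zinc finger protein expressed from the paternal allele, had 1138 counts in the H2AZ cKO against 1680 in the control, or 130.6 and 186.3 CPM. Its ratio was 0.701 (0.649 to 0.756). Usp29, a ubiquitin-specific protease gene transcribed in the opposite direction from the same promoter region, had 283 counts against 322 (0.909, 0.772 to 1.07). The maternally expressed zinc finger gene Zim1 had 55 against 71 (0.801, 0.553 to 1.16). The Usp29 to Peg3 count ratio was 0.249 in the H2AZ cKO and 0.192 in the control, a ratio of ratios of 1.30 (1.08 to 1.55). The genes around Peg3 were also mostly on the lower side. Of 12 compared within 500 kb, 11 (91.7%) lay below 0, where 49.0% of all genes did, with a median log2 ratio of -0.13. The counting interval lay below 1 for 2 of the 12 and above 1 for 1. These shares were 16.7% and 8.33%, against 11.2% and 12.6% of all genes. The 2 lower were the zinc finger genes Zfp667 at 0.712 (0.544 to 0.928) and Zfp28 at 0.779 (0.624 to 0.970). Zfp444 stood at 1.14 (1.02 to 1.28).

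In the Magel2-Ube3a cluster of central chromosome 7, the orthologue of the Prader-Willi and Angelman region, adjacent paternally expressed genes differed in direction. Magel2, a MAGE-family gene active in the hypothalamus, had 703 counts in the H2AZ cKO against 925 in the control, a ratio of 0.786 (0.712 to 0.868). Ndn (necdin), its MAGE-family neighbour, had 4558 against 5057 (0.932, 0.896 to 0.971). Mkrn3, a makorin RING finger gene, had 149 against 121 (1.27, 0.996 to 1.63). Against Ndn as the reference the Magel2 balance was 0.843 (0.757 to 0.939) and the Mkrn3 balance 1.37 (1.06 to 1.76). Snrpn, a small nuclear ribonucleoprotein of neurons, had 1142 counts against 1143 (1.03, 0.951 to 1.12). It shares exons with Snurf, so the gene of origin of these reads is uncertain. Ube3a, the ubiquitin ligase expressed from the maternal allele in neurons, had 739 against 803 (0.952, 0.860 to 1.05). Snhg14, the long paternal transcript that runs antisense through Ube3a, had 610 against 744, a ratio of 0.848 (0.761 to 0.945). The exons of Ube3a and Snhg14 overlap on opposite strands.

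The promoters of the lower genes in these clusters are shown for their CpG sites, since imprinted control acts through CpG methylation. Each is the RefSeq window (GRCm38.p6) from 250 bases before to 50 after the gene's start, written 5′ to 3′ on the gene's own strand with CpG sites in capitals. Dlk1 lies at chr12:109452573-109452872 (plus strand), Peg3 at chr7:6730370-6730669 (minus strand) and Magel2 at chr7:62376729-62377028 (plus strand). Ndn, at chr7:62348027-62348326 (plus strand), is shown as the neighbour of Magel2 that lay nearer to 1.
Dlk1: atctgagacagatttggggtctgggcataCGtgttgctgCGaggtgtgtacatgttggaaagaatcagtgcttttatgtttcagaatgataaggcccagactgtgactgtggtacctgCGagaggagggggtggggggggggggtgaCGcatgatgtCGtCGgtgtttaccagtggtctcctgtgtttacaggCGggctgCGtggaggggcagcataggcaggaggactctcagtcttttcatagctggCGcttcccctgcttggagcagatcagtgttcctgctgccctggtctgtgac
Peg3: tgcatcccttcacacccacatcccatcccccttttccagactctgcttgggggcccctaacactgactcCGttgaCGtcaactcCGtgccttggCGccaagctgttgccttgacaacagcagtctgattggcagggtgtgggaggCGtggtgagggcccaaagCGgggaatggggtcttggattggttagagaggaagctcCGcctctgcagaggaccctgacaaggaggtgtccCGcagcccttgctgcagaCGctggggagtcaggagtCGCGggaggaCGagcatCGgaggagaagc
Magel2: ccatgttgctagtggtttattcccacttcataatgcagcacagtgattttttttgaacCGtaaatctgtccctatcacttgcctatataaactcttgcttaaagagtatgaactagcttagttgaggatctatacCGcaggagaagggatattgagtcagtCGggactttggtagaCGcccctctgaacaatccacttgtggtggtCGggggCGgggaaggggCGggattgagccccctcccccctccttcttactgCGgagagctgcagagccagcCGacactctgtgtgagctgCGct
Ndn: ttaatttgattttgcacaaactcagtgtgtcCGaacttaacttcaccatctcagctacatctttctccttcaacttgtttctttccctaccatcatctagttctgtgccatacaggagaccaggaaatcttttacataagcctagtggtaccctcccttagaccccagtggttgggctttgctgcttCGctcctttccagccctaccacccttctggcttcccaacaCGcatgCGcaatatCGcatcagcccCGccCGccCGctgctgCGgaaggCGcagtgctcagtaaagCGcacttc
These windows hold 9 (Dlk1), 13 (Peg3), 10 (Magel2) and 11 (Ndn) CpG sites. The median was 14 over the 47 windows of the 31 members with a RefSeq promoter and 7 over all 32851 windows. The Peg3 and Usp29 windows share 263 of their 300 bases, with starts 164 bases apart. TGCCGC, the motif of the imprint-keeping zinc finger ZFP57, was searched on both strands. It occurred in 13 member windows (27.7%) and in 11.6% of all windows, whose CpG content is lower. These belong to Copg2, Grb10, Igf2, Meg3, Mest, Nap1l5, Nnat, Plagl1, Snrpn, Snurf, Zdbf2 and Zim1. Snrpn and Snurf share 1 window that is counted for each. The 2 Mest windows among them (chr6:30737800-30738099 and chr6:30737803-30738102) overlap almost fully, so the 13 are not all distinct. None of the Dlk1, Peg3, Magel2 and Ppp1r9a windows held these letters, and neither did those of the higher members Asb4 and Mkrn3. GGGGCCCC, searched as the motif of ZAC1 (Plagl1), occurred in 3 member windows (6.38%) and in 1.08% of all windows. Those 3 are the largely shared Peg3 and Usp29 windows and 1 of Ppp1r9a. A motif match describes the sequence and is not a measured binding site.

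The Peg10-Sgce cluster on proximal chromosome 6 held members on both sides. Ppp1r9a (neurabin, an actin-binding partner of protein phosphatase 1) had 606 counts in the H2AZ cKO against 839 in the control, a ratio of 0.747 (0.672 to 0.831). Asb4, an ankyrin-repeat and SOCS-box gene grouped as maternal like Ppp1r9a, had 236 against 187 (1.31, 1.07 to 1.59). Sgce (epsilon-sarcoglycan) had 361 against 312 (1.20, 1.03 to 1.40). Peg10, a retrotransposon-derived gene whose promoter faces that of Sgce, had 1968 against 2105 (0.967, 0.909 to 1.03). The Ppp1r9a to Sgce balance was the pair farthest from 1 among the 18 pairs examined, at 0.624 (0.517 to 0.754). The Asb4 to Peg10 balance was 1.35 (1.10 to 1.66) and the Sgce to Peg10 balance 1.24 (1.05 to 1.46).

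**Figure D3:**
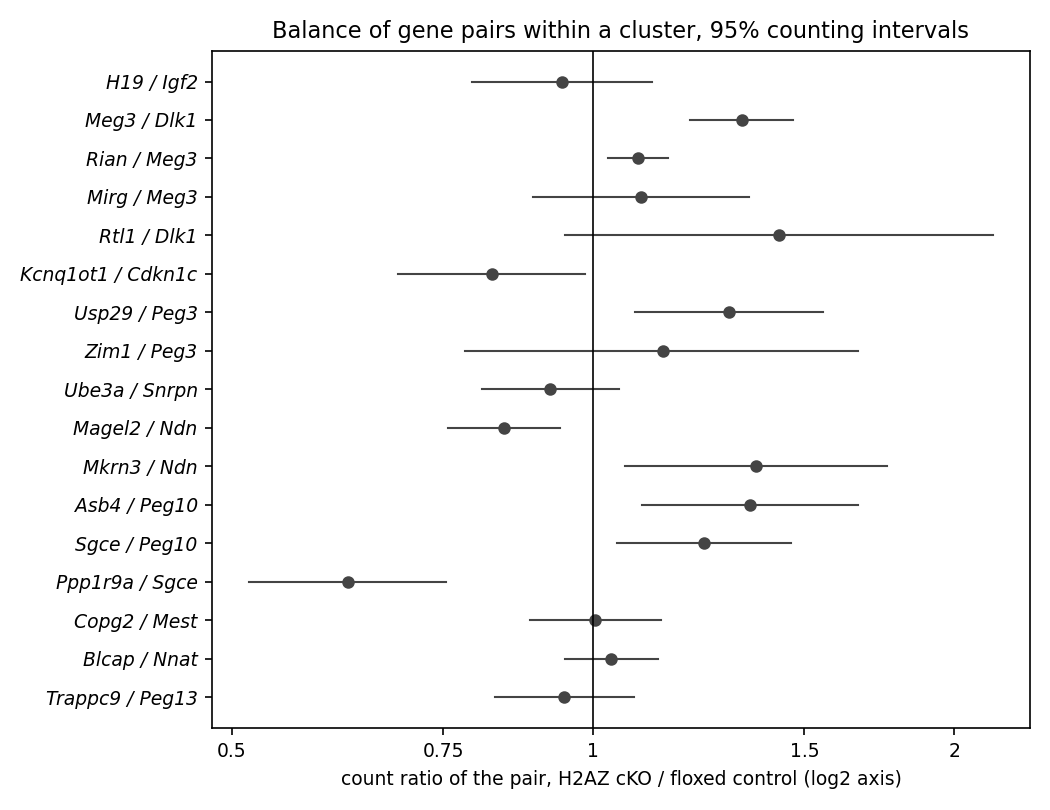
Count ratio of 2 genes of 1 cluster in the H2AZ cKO, divided by the same ratio in the floxed control, on a log2 axis. Points are values and bars exact conditional 95% intervals for counting error only; Airn over Igf2r (8 and 7 Airn counts) is not drawn. The lowest point is Ppp1r9a over Sgce (0.624).

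Distal chromosome 7 carries a pair of adjoining growth-control domains. Igf2 and H19 in the first were near 1, while Cdkn1c in the second was slightly higher. Igf2, the fetal growth factor of the paternal allele, had 388 counts in the H2AZ cKO against 382 in the control (1.05, 0.910 to 1.21). H19, the maternal noncoding RNA that shares its enhancers, had 892 against 932 (0.990, 0.902 to 1.09). The H19 to Igf2 balance was 0.942 (0.793 to 1.12). Both genes are known to be strong in mesenchyme, and the 10 meningeal and mesenchymal markers with a row (Lum and Aldh1a2 had none) summed to 50.1 against 47.2 CPM, with none at 0. Crabp2 made up most of that sum, at 29.8 against 22.4 CPM, and 5 of the 8 markers compared lay below 0 (median log2 ratio -0.26). Foxd1 at 0.398 (0.171 to 0.853) and Dcn were past 1.5-fold lower, and the part of these cells in the values of Igf2 and H19 was not tested. Cdkn1c, the cyclin-dependent kinase inhibitor p57, had 1543 against 1460 (1.09, 1.02 to 1.18). Kcnq1ot1, the paternal noncoding RNA that silences Cdkn1c in cis, had 281 against 323 (0.90, 0.764 to 1.06). The balance of Kcnq1ot1 to Cdkn1c was 0.823 (0.688 to 0.985). Its direction turned with the trend of length, GC content and level removed, when the log2 ratio of Kcnq1ot1 was 0.25 in place of -0.15 and that of Cdkn1c 0.017 in place of 0.13. Kcnq1ot1 overlaps exons of Kcnq1 on the other strand, and Kcnq1 itself had 11 and 7 counts.

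In the Igf2r and Peg13 clusters all 3 members compared were lower. Igf2r, the receptor that clears Igf2, had 505 counts in the H2AZ cKO against 633 in the control (0.825, 0.733 to 0.929). Peg13, a paternal noncoding RNA inside an intron of Trappc9, had 1599 against 1937 (0.854, 0.799 to 0.913). Trappc9, a subunit of a vesicle-tethering complex that favours the maternal allele in brain, had 532 against 681 (0.808, 0.720 to 0.907). Their balance was 0.946 (0.828 to 1.08). Plagl1 (ZAC1), a zinc finger factor known to bind several imprinted loci, had 2300 against 2664 (0.893, 0.844 to 0.945).

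Several smaller domains lay on the higher side. Gnas, which encodes the stimulatory G-protein alpha subunit along with overlapping imprinted transcripts, had 652 counts in the H2AZ cKO against 572 in the control (1.18, 1.05 to 1.32). Its antisense partner Nespas had 12 and 9. Grb10, an adaptor of insulin and IGF receptors that neurons express from the paternal allele, had 3605 against 3435 (1.09, 1.04 to 1.14). Zrsr1 (172 against 148), a splicing-factor gene inside an intron of Commd1, stood at 1.20 (0.959 to 1.51), and its host Commd1 at 1.19 (0.981 to 1.45). Annotated exons of Zrsr1 and Commd1 overlap on opposite strands, so reads there cannot be told apart. Nap1l5 (280 against 249), inside an intron of Herc3, stood at 1.16 (0.977 to 1.39), and Herc3 at 0.969 (0.830 to 1.13).

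The remaining members were near 1. Nnat was at 1.02 (1.01 to 1.04) and Blcap, the gene whose intron holds it, at 1.06 (0.970 to 1.16) with 1039 counts against 1015. The ratio of Nnat depends on the scaling and was -0.00848 on the log2 scale when libraries were scaled by total count. Mest, an enzyme of the alpha/beta hydrolase fold, had 1746 counts against 1756 (1.03, 0.962 to 1.10). Its antisense neighbour Copg2, a coatomer subunit gene, had 712 against 713 (1.03, 0.930 to 1.15). Annotated exons of Mest and Copg2 overlap on opposite strands, so reads there cannot be told apart. Impact, an inhibitor of the kinase GCN2, had 235 against 231 (1.05, 0.874 to 1.27). Inpp5f, a phosphoinositide phosphatase, had 1936 against 2048 (0.978, 0.919 to 1.04). Zdbf2, a zinc finger gene, had 597 against 680 (0.908, 0.812 to 1.02).

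**Figure D4:**
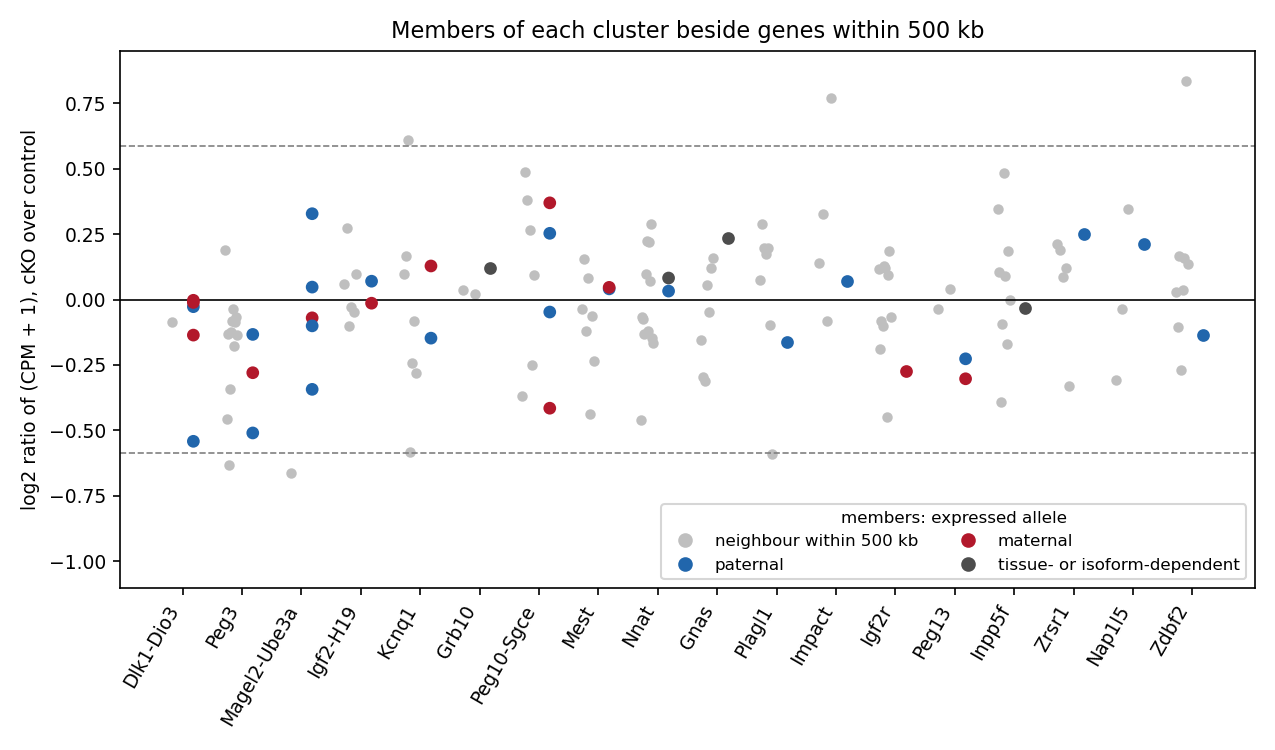
Log2 ratio of (CPM + 1), H2AZ cKO over floxed control, for each imprinted cluster. Coloured points are members and grey points the other genes at 1 CPM or more within 500 kb of the cluster; dashed lines mark 1.5-fold. Neighbours spread on both sides of 0 in most clusters. Beside Peg3 11 of 12 lie below 0, 2 of them with a counting interval below 1, where 49.0% of all genes lie below 0.

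Genes flanking the clusters were spread around 0 as well. Of 108 neighbours compared, 52 were above 0 and 56 (51.9%) below, where 49.0% of all genes lay below (median log2 ratio -0.0324). Of the 108, 3 were at least 1.5-fold higher and 3 lower, where 1.92% and 3.03% of all genes were. With an interval that leaves out 1, Snora41 (12 against 3 counts) and Gm5687 (21 against 9) were higher, and Adat2 (26 against 45) and Gm38393 (31 against 56) were lower. Gm38393 shares exons with Snrpn and Snhg14. Of 50 further imprinted genes listed, 39 had a row and 34 were compared, with 15 above 0, 19 below and a median of -0.0292. Cpa4 was at 87 against 59 counts (1.53, 1.08 to 2.16), and Dcn, also a mesenchymal marker, at 7 against 20 (0.362, 0.129 to 0.891). On the log2(CPM + 1) scale Dcn was the only one of the 34 at least 1.5-fold lower, and Cpa4 was less than 1.5-fold higher. Qpct was at 37 against 24 (1.59, 0.929 to 2.79) and Ddc at 23 against 37 (0.643, 0.365 to 1.11), both with an interval that holds 1. Dlx5, beside the Peg10 domain, was at 1.30 (1.18 to 1.44).

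Among the genes that set or keep imprints, Zfp445 stood apart. This KRAB zinc finger gene, which together with Zfp57 protects methylation of imprinting control regions, had 124 counts in the H2AZ cKO against 286 in the control, a ratio of 0.449 (0.360 to 0.556). It was the only one of 26 regulators compared at least 1.5-fold apart, where 3.03% of all genes were that much lower and 1.92% higher. The counting interval lay below 1 for 9 of the 26 (34.6%) and above 1 for 5 (19.2%). Of all genes 11.2% and 12.6% did so, and 12.9% and 16.5% of those with 200 or more counts. Zfp57 itself had 2517 counts against 2441 (1.07, 1.01 to 1.13), and its corepressor Trim28 6662 against 6485 (1.06, 1.03 to 1.10). Dnmt3a and Tet1, which add and oxidise DNA methylation, were at 0.796 (0.738 to 0.859) and 0.787 (0.650 to 0.952). Dnmt1, the maintenance methyltransferase, was at 0.937 (0.887 to 0.990), and Ctcf, the insulator protein of the Igf2-H19 control region, at 1.02 (0.948 to 1.09). The median of the list was 0.0121, with 14 above 0 and 12 below. Whether the level of any regulator bears on the imprinted genes was not tested.

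Markers of other regions also differed. The 8 markers of hypothalamus and diencephalon summed to 31.8 against 73.7 CPM in the control. Each of the 7 compared had a log2 ratio under 0, 6 of them past 1.5-fold, and Nkx2-4 and Rax had 0 counts in the H2AZ cKO against 25 and 9. Which imprinted genes are expressed in those regions was not examined, for the lowest members or for the highest. The part of that tissue in the values of the imprinted genes was not tested. Neither was the part of embryo sex. The 6 choroid plexus markers, 5 of them below 0, summed to 40.7 against 49.0 CPM, with none at 0.

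**Figure D5:**
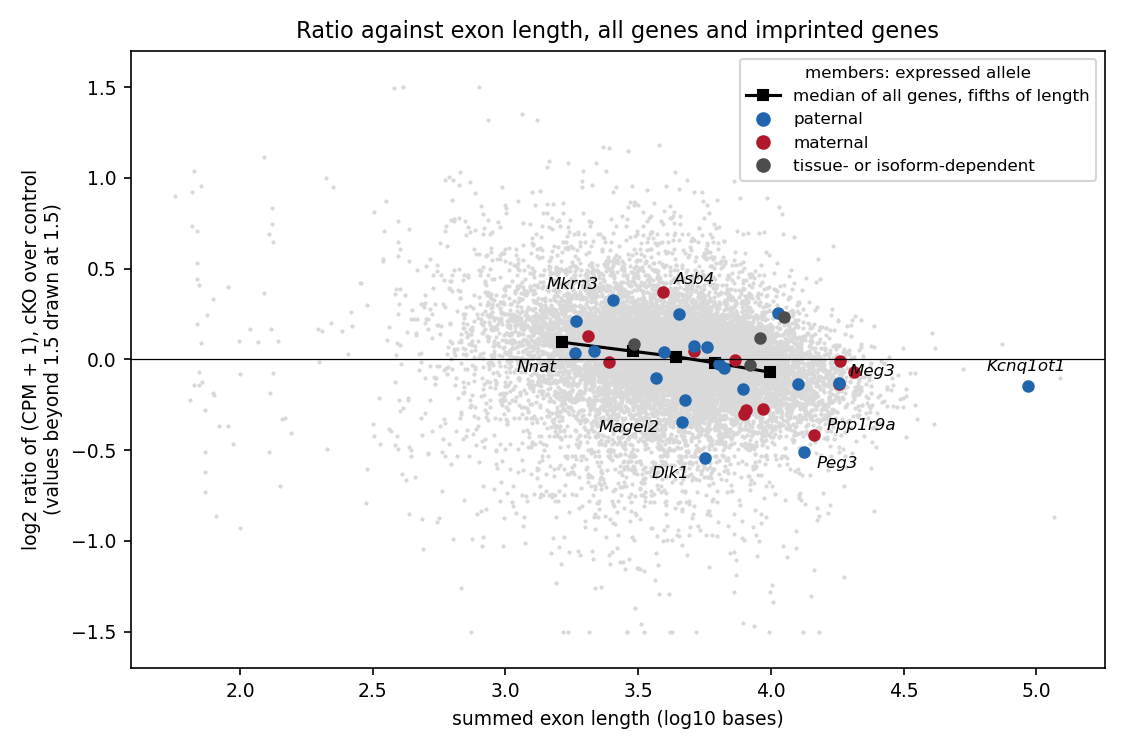
Log2 ratio of (CPM + 1), H2AZ cKO over floxed control, against summed exon length in log10 bases. Grey dots are all genes at 1 CPM or more, black squares the medians of 5 equal bins of length, and coloured points the imprinted genes. The medians run from 0.09 in the shortest bin to -0.0706 in the longest.

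Ratios also ran with transcript length over all genes. The median log2 ratio went from 0.09 in the shortest of 5 bins of exon length to -0.0706 in the longest, and the imprinted genes compared had a median exon length of 6512 bases against 4384. With a joint trend of length, GC content and level removed, the median of the 36 imprinted genes was 0.00375. Dlk1 was then at -0.54 on the log2 scale, Peg3 at -0.43 and Magel2 at -0.36, close to -0.54, -0.51 and -0.34 without the correction, while Ppp1r9a was at -0.30 in place of -0.42. Past 0.32 on this corrected scale lay 2 higher members (Asb4 and Sgce) and 3 lower (Dlk1, Peg3 and Magel2), where 8.55% and 7.97% of all genes did. Meg3 was at -0.05 in place of -0.14, Ndn at -0.19 in place of -0.10 and Cdkn1c at 0.017 in place of 0.13, each outside its counting interval. Kcnq1ot1, the longest member, changed sign, from -0.15 to 0.25, as did Rian, Mirg, Rtl1, Ube3a, Usp29, Nnat, Snrpn and Mest.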

How the data were processed

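RNA-seq of 1 library per genotype was analysed as a table of the whole series. Per the labels' protocols, Trizol RNA (2 ug of total RNA) went into Illumina TruSeq libraries. HTSeq 0.6.0, TopHat2 2.0.12, Bowtie2 2.2.3 and build mm9 are listed without roles, per the submitters' processing notes. The deposited positions instead matched GRCm38 (79.1% identical to GENCODE M21). The deposited counts are whole reads per Ensembl gene. The deposited CPM columns, fold changes (ratio), log2 fold changes and p-values are the authors' own, and CPM was used only as an alternative. Depth was 8839840 and 8891198 counts.

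Counts were scaled with edgeR 4.0.16 TMM factors (0.986 and 1.01) in R 4.3.3. The log2 ratio used a pseudocount of 1 CPM and a floor of 1 CPM in the higher library. Other steps used Python 3.11.15, scipy 1.17.1, pandas 2.3.3, numpy 2.4.6 and matplotlib 3.10.9, and were tested on simulated data. Exon lengths and symbols came from GENCODE M21 (19112 identifiers matched). Reads are not independent molecules, so intervals cover counting error only. All members are named; of other lists, genes at least 1.5-fold apart with an interval leaving out 1, or the 4 largest; 1 gene this rule names is not reported here. Zfp28, Zfp444, Zfp667, Dlx5, Commd1, Herc3, Kcnq1, Snhg14, Nespas, Trim28, Zfp57, Dnmt1 and Ctcf were named after their values were seen. Members and lists were chosen with earlier results of these data known. Alternatives were other pseudocounts, floors, scalings (DESeq2 1.42.0 size factors) and sizes, leaving out members with an exon overlap, and removal of the length, GC and level trend.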

Additional observations from a re-analysis of the deposited data

How the results depend on the processing

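No paired analysis was possible because there is 1 library per genotype with no replicate numbers. The count of members past the size moved with the size that was counted. It was 0 higher and 0 lower at 1.5-fold, 2 and 4 at 0.32 on the log2 scale and, in a setting added after seeing the data, 2 and 3 at that size with the joint trend of length, GC content and level removed. Leaving out the 19 members whose exons overlap another annotated gene took the median of all members from -0.0208 to -0.10, with 17 left, and that of the maternally expressed genes from -0.0421 to -0.28, with 5 of them left; the cause was not tested. Among single members, Nnat changed sign with total count scaling and with the CPM as deposited, and 9 changed sign with the trend removed. No member changed sign with pseudocounts of 0.1 and 5 CPM, without a floor, with a floor of 5 CPM, with DESeq2 size factors or without the X and Y chromosomes. Precision is limited by 1 library per genotype, and for Phlda2, Airn, Rtl1 and Zim1 by low counts.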
